A study of Mus musculus with 12 samples.

Results

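The genes described are 10 antioxidant and ferroptosis defence genes, chosen by name: Gpx4, Aifm2, Prdx6, Glrx2, Txnrd1, Mgst3, Gstt1, Idh1, Mif and Cisd1. All 10 had a row in a table of 2398 genes with raw RNA-seq counts, and all 10 passed the filter on low counts, which left 1484 genes for testing. The cells were mouse oligodendrocytes that make myelin, sorted as GFP-positive cells that excluded propidium iodide, a dye of dead cells. KO mice were CnpCre/+;Lmnafl/fl, with Cre recombinase in place of 1 Cnp allele, and WT mice were Cnp+/+;Lmnafl/fl. Both genotypes carried the Ndrg1-EGFP reporter and floxed alleles of Lmna, the gene of lamins A and C, on a C57BL/6 background. Besides recombined Lmna, KO mice therefore carried Cre and lacked 1 intact copy of Cnp; recombination is expected where Cnp is active, which is the oligodendrocyte lineage. The labels give the age as postnatal day 60 in one field and as 8 weeks in another, and they do not say whether a replicate was 1 animal or a pool. There were 3 replicates per genotype (n = 3 each), each the sum of 2 libraries.

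Ferroptosis is a form of cell death driven by iron and by peroxides of membrane lipids. Cells hold it back by reducing these peroxides or trapping lipid radicals, in systems that use glutathione, thioredoxin, coenzyme Q and NADPH. Oligodendrocytes hold much iron and maintain a very large lipid membrane, and they are known as cells that oxidative damage injures easily. Of the genes described, Gpx4 encodes the selenoprotein that reduces phospholipid hydroperoxides with glutathione, and Aifm2 encodes FSP1, which reduces coenzyme Q at membranes. Prdx6, Glrx2, Txnrd1, Mgst3 and Gstt1 encode enzymes of the peroxiredoxin, glutaredoxin, thioredoxin and glutathione transferase families. Idh1 encodes the cytosolic isocitrate dehydrogenase that makes NADPH, Mif a cytokine with tautomerase activity and a thioredoxin-like CXXC motif, and Cisd1 mitoNEET, an iron-sulfur protein of the outer mitochondrial membrane.

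The genes lie on chromosomes 1 and 10 of mm10, and all are protein-coding. Gpx4 (Entrez Gene 625249) lies on the plus strand at chr10:80047166-80056439, and Cisd1 (52637) on the minus strand at chr10:71330494-71344849. Txnrd1 (50493) lies at chr10:82833951-82897724 and Aifm2 (71361) at chr10:61715263-61739260, both on the plus strand. Prdx6 (11758) lies at chr1:161240112-161251210, Mgst3 (66447) at chr1:167371966-167393841 and Idh1 (15926) at chr1:65158616-65186479, all on the minus strand, and Glrx2 (69367) at chr1:143739224-143749678 on the plus strand. Gstt1 (14871), at chr10:75783813-75798584, and Mif (17319), at chr10:75859353-75860277, both lie on the minus strand, with Gstt4 and Gstt2 between them. In GENCODE M21 the exons of Aifm2 shared 233 bases, 5.65% of their length, with H2afy2 on the opposite strand, and those of the other 9 genes shared none with an annotated gene. Annotated pseudogenes carry the names of Gpx4, Prdx6 and Mif, and pseudogenes under other names were not searched for. The sources do not say whether reads matching several places were counted. The levels of these 3 genes, and possibly of others of the 10, are uncertain to that extent.

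Upstream sequences are shown for 3 of the genes: for Gpx4, the one gene whose KO and WT replicates did not overlap, for Cisd1, which held the same motif, and for Txnrd1, the one gene with an antioxidant response element. Each is the 250 bases before a RefSeq start in GRCm38.p6, written 5′ to 3′ on the strand of the gene, at chr10:80053315-80053564 (plus strand) for Gpx4, chr10:71344850-71345099 (minus strand) for Cisd1 and chr10:82858956-82859205 (plus strand) for Txnrd1. Capitals mark GCGCA, any base and GCGC, a motif of the type bound by nuclear respiratory factor NRF1, in Gpx4 and Cisd1, the CCAAT box in Gpx4 and Txnrd1, and TGACNNNGC, the core of the antioxidant response element through which NRF2 acts, in Txnrd1. Both strands were searched, so a motif can stand in its reverse complement.
Gpx4: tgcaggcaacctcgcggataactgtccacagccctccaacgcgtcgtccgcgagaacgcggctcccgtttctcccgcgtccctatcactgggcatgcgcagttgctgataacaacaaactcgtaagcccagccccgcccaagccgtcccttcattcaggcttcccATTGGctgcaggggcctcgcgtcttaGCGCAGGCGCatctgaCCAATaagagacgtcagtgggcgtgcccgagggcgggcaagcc
Cisd1: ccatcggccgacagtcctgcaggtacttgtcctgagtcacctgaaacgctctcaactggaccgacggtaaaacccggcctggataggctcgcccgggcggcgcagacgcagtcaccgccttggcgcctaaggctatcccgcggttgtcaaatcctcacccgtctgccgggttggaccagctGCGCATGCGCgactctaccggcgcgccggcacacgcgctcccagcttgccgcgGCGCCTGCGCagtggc
Txnrd1: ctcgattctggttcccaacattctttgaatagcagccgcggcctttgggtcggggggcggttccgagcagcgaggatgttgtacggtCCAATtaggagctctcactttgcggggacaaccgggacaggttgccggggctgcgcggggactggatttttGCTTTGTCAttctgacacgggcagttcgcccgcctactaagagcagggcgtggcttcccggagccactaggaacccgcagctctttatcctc
Among 32817 RefSeq upstream windows of this length, the antioxidant response element core was found in 10.2%, and among the 18 windows of the 10 genes in 1. The NRF1-type motif was found in 3.73% of all windows and in 3 windows of the genes, 2 of Gpx4 that overlap each other and 1 of Cisd1. CCAAT was found in 33.8% of all windows and in 8 of the 18, which belong to 5 of the genes, Gpx4, Glrx2, Gstt1, Idh1 and Txnrd1. GGGCGG, the GC box, was found in 32.7% of all windows and in 10 of the 18, which belong to 7 of the genes, Gpx4, Cisd1, Glrx2, Idh1, Mgst3, Mif and Txnrd1. A match describes letters in the window and not a bound site, and the counts do not say which start was used.

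Counts in the 2398 genes ranged from 3694551 to 6093336 per replicate, with the lowest totals in KO replicate 1 (3694551) and WT replicate 2 (4155727). The table covers chromosome 1 and chromosome 10 up to 111.3 Mb, so these totals are not the depth of the libraries, and Lmna and Cnp were not analysed here. Levels are given in CPM, counts scaled to a fixed total over these genes and by TMM factors. Of the 24 genes of mature oligodendrocytes listed, the 3 in the table, Tmem63a, Adamts4 and Nfasc, were abundant. Their summed level was 27226 to 30349 CPM in KO replicates and 22362 to 24865 CPM in WT replicates. Adamts4, a protease of myelinating oligodendrocytes, averaged 9388 ± 394 CPM in KO cells and 6582 ± 489 CPM in WT cells (SD, n = 3 each), with an edgeR adjusted p of 0.504. Of the 10 progenitor genes listed, the 2 in the table were Neu4 and Tnr. They summed to 12.2 to 95.6 CPM in KO replicates and 0.497 to 36.6 CPM in WT replicates. Of the other cell types, the table held 3 of 15 astrocyte genes listed and 2 of 15 microglia genes. The astrocyte genes summed to 484 to 1095 CPM in KO replicates and 356 to 799 CPM in WT replicates. The microglia genes summed to 47.0 to 242 CPM in KO replicates and 41.5 to 85.5 CPM in WT replicates. The 7 vascular and matrix genes in the table, of 15 listed, included Rgs5 near 0. They summed to 974 to 1280 CPM in KO replicates and 822 to 1044 CPM in WT replicates. Of the 10 genes on the neuronal list, 3 were in the table. Scg2 stood at 5.38 to 36.7 CPM in KO replicates and 2.66 to 226 CPM in WT replicates. Syt1 stood at 3.70 to 10.1 CPM in KO replicates and 2.73 to 21.6 CPM in WT replicates. Kcnj13, listed with them although it is not a marker of neurons, stood at 1.58 to 16.2 CPM in KO replicates and 4.97 to 131 CPM in WT replicates. None of these genes that were tested passed the test of KO against WT, and what part they have in the results below was not tested.

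Per length, the 10 genes spanned a wide range of abundance. The level per kilobase of the longest GENCODE transcript, averaged over all 6 replicates, was 5609 CPM per kb for Gpx4, 4725 for Mif, 2269 for Cisd1, 1122 for Idh1, 1041 for Prdx6 and 866 for Mgst3. It was 156 CPM per kb for Txnrd1, 151 for Glrx2, 53.0 for Aifm2 and 13.3 for Gstt1. Gpx4 exceeded 99.3% of the genes tested on this scale, Aifm2 52.8% and Gstt1 32.5%. Neighbours in this order overlapped between replicates for Gpx4 and Mif, for Idh1 and Prdx6, for Prdx6 and Mgst3 and for Txnrd1 and Glrx2, so the order within these pairs is not set by the data. The other neighbours did not overlap in any replicate. The glutathione enzyme Gpx4 thus stood far above the coenzyme Q reductase Aifm2, with replicates from 4904 to 6684 CPM per kb against 46.6 to 56.2 CPM per kb. Prdx6 and Mgst3, whose products also reduce peroxides, lay between them at 1041 and 866 CPM per kb. Transcripts shorter than the longest would raise the level per kilobase, which matters most for Glrx2 and Txnrd1 with 3905 and 3622 bases.

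**Figure D1:**
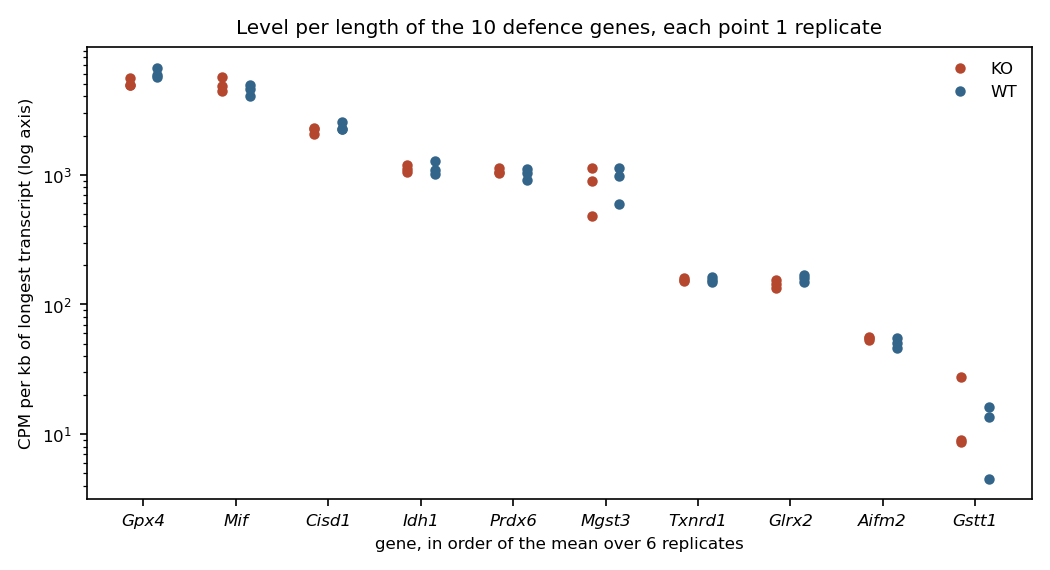
Level of each of the 10 genes in CPM per kilobase of its longest transcript, on a log axis, with genes ordered by the mean over 6 replicates and 1 point per replicate (KO left, WT right). Gpx4 and Mif sit together at the top, Idh1, Prdx6 and Mgst3 overlap in the middle, and Gstt1 at 4.56 to 27.6 CPM per kb is the lowest.

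The comparison of KO with WT asked whether these transcripts differ between oligodendrocytes of the genotypes. None of the 10 passed the edgeR test (quasi-likelihood, Benjamini-Hochberg adjusted over all genes tested), in which 0.00% of the 1484 genes were called, and the adjusted p values of the 10 ranged from 0.994 to 0.996. At an unadjusted p under 0.05 there were 0 of the 10, beside 3.98% of all genes tested. DESeq2 and limma-voom on the same replicates also called 0 of the 10, each with 0 at an unadjusted p under 0.05, and DESeq2 called 0.472% of all genes. The log2 fold change, KO over WT, was above 0 for 5 genes and below 0 for 5, with a median of -0.0078, beside -0.0064 over all genes tested. In bulk RNA from sorted cells, fewer cells of a type and less RNA per cell cannot be told apart. The labels call the replicates biological without saying what separated them, so the p values measure the spread between these samples.

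Gpx4 was the one gene of the 10 with KO and WT replicates apart from each other. It stood at 5566, 4879 and 4923 CPM in KO replicates 1 to 3, against 6650, 5633 and 5838 CPM in WT replicates 1 to 3. All KO values lay below all WT values, and the separation was narrow, since the highest KO value and the lowest WT value were 1.202% apart. The 2 libraries of a replicate themselves differed by up to 1.88% for this gene. The means were 5123 ± 384 CPM in KO cells and 6040 ± 538 CPM in WT cells (SD, n = 3 each), so the KO mean was 84.8% of the WT mean. The log2 fold change was -0.24 ± 0.11 (SE), with a 95% interval from -0.50 to 0.023 (edgeR unadjusted p = 0.0690, adjusted p = 0.994), and adjusted p over all alternatives was 0.884 to 1.00. Replicates did not overlap in 8.49% of all genes tested, in 4.04% with KO lower and in 4.45% with KO higher, beside 1 of the 10 here, with KO lower. Leaving out 1 replicate moved the unadjusted p in both directions. It was 0.186 without KO replicate 2, 0.185 without KO replicate 3 and 0.187 without WT replicate 1, where the log2 fold change was -0.16, and 0.0708 without WT replicate 3. It was 0.0430 without KO replicate 1, 0.0480 without WT replicate 2, 0.0323 without both and 0.0353 with total counts in place of TMM.

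The coenzyme Q reductase gene Aifm2 stood near the middle of the tested genes in level and varied little. Its level was 173, 165 and 170.5 CPM in KO replicates 1 to 3, against 157, 144 and 171 CPM in WT replicates 1 to 3. WT replicate 3 lay among the KO replicates, so the genotypes overlapped. The means were 169.8 ± 4.06 CPM in KO cells and 157 ± 13.8 CPM in WT cells (SD, n = 3 each), with a log2 fold change of 0.11 ± 0.14 (SE) and a 95% interval from -0.21 to 0.43 (edgeR adjusted p = 0.994). The log2 fold change was 0.057 without WT replicate 2 and 0.18 without WT replicate 3.

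**Figure D2:**
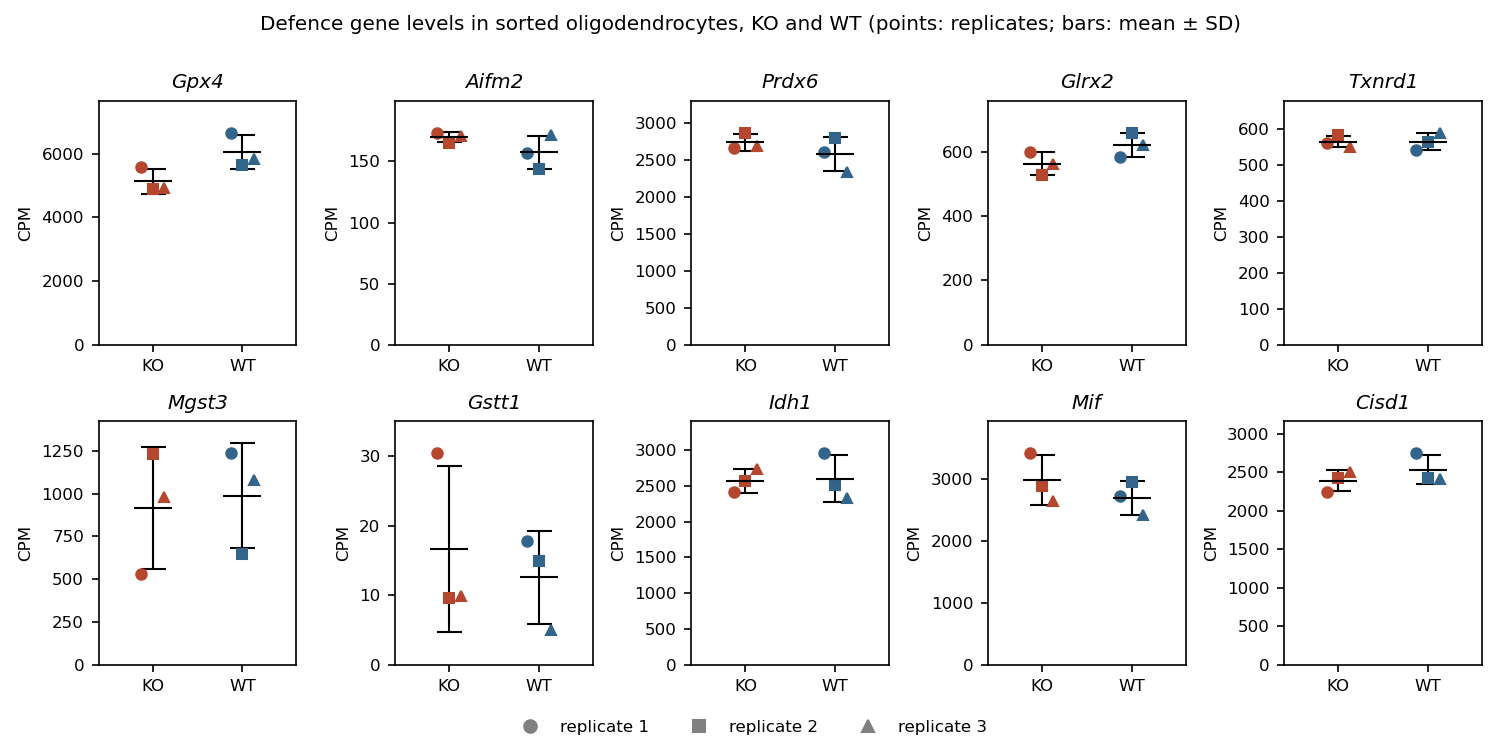
CPM of the 10 genes in KO (left, red) and WT (right, blue) replicates, with the replicate number as the symbol and the mean ± SD as black bars, each panel starting at 0. Only in the Gpx4 panel do all KO points lie below all WT points, and the Mgst3 and Gstt1 panels show the widest spread within both genotypes.

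Prdx6, Glrx2 and Txnrd1 belong to the thiol-based peroxide and disulfide reductases. Prdx6 encodes a peroxiredoxin that reduces phospholipid hydroperoxides and also has phospholipase activity, and it stood at 2657, 2869 and 2690.05 CPM in KO replicates 1 to 3, against 2611, 2805 and 2343 CPM in WT replicates 1 to 3. The genotypes overlapped, with the lowest value in WT replicate 3, and the log2 fold change was 0.083 ± 0.11 (SE; 95% interval -0.16 to 0.32), which was 0.024 without WT replicate 3, 0.052 without KO replicate 2 and 0.16 without WT replicate 2. Glrx2, a glutaredoxin found in mitochondria, stood at 599, 527 and 561 CPM in KO replicates 1 to 3, against 582, 658 and 622 CPM in WT replicates 1 to 3. Here KO replicate 1 lay above WT replicate 1 and the other KO replicates lay below all WT replicates, with a log2 fold change of -0.14 ± 0.11 (SE; 95% interval -0.39 to 0.11), which was -0.090 without WT replicate 2 and -0.095 without KO replicate 2. With total counts in place of TMM the Glrx2 replicates did not overlap, and KO was lower. On that scale replicates did not overlap, in either direction, in 9.37% of all genes tested.

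Txnrd1, the cytosolic selenoprotein that reduces thioredoxin with NADPH, had the least spread of the 10. It stood at 562, 582 and 551 CPM in KO replicates 1 to 3, against 541, 563 and 589 CPM in WT replicates 1 to 3. The highest value was 1.09 times the lowest over all 6 replicates, and the mean of the coefficients of variation in KO and WT was lower in 0.876% of the genes tested. The means were 565 ± 16.1 CPM in KO cells and 564 ± 24.2 CPM in WT cells (SD, n = 3 each). The log2 fold change was 0.0014 ± 0.10 (SE), with a 95% interval from -0.23 to 0.23 (edgeR adjusted p = 0.996).

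The glutathione transferase genes varied most, and they did so within both genotypes. Mgst3, a transferase of internal membranes that also has peroxidase activity, stood at 528, 1230 and 982 CPM in KO replicates 1 to 3, against 1236, 648 and 1079 CPM in WT replicates 1 to 3. The low values were those of KO replicate 1 and WT replicate 2, and the other 4 replicates lay between 982 and 1236 CPM. Its coefficient of variation was 39.0% in KO cells and 30.8% in WT cells, while the 2 libraries of a replicate differed by up to 3.64%. The log2 fold change was -0.11 ± 0.36 (SE), with a 95% interval from -0.98 to 0.75 (edgeR adjusted p = 0.994), and it was 0.16 without KO replicate 1, 0.079 without WT replicate 1, -0.38 without KO replicate 2 and -0.33 without WT replicate 2. It was -0.17 without KO replicate 3 and -0.030 without WT replicate 3. KO replicate 1 and WT replicate 2 also had the lowest total counts, and their deviations from the mean of the genotype across all genes tested had a correlation of 0.35 over genes. This was the highest value among all pairs of a KO and a WT replicate. The lowest was of similar size, -0.34 for KO replicate 1 and WT replicate 3. Atf3, a stress-response gene chosen after its values were seen, stood at 37.0, 208 and 99.3 CPM in KO replicates 1 to 3, against 121, 32.8 and 242 CPM in WT replicates 1 to 3, low in the same pair. Ncoa7, another regulator of the oxidative stress response, was instead highest in this pair within each genotype. Its level was 108, 69.0 and 81.7 CPM in KO replicates 1 to 3, against 70.5, 86.0 and 71.7 CPM in WT replicates 1 to 3. The progenitor genes Neu4 and Tnr were lowest in this pair within each genotype. The part of total counts, stress genes or progenitor genes in the Mgst3 values was not tested.

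Gstt1, a cytosolic transferase of the theta class, was the least abundant of the 10. Its level was 30.5, 9.66 and 9.93 CPM in KO replicates 1 to 3, from 107, 61 and 48 counts, against 17.9, 14.9 and 5.04 CPM in WT replicates 1 to 3, from 94, 60 and 28 counts. KO replicate 1 was the highest and WT replicate 3 the lowest, a 6.04-fold range, and the genotypes overlapped. The log2 fold change was 0.40 ± 0.66 (SE), with a 95% interval from -1.10 to 1.90 (edgeR adjusted p = 0.994), and it was -0.36 without KO replicate 1. Without 1 of the other replicates it ranged from 0.022 without WT replicate 3 and 0.55 without WT replicate 2 to 0.66 without KO replicate 3, 0.68 without KO replicate 2 and 0.74 without WT replicate 1. The astrocyte gene Gja1, the connexin of astrocyte gap junctions, stood at 737, 186 and 158 CPM in KO replicates 1 to 3, against 372, 294 and 92.7 CPM in WT replicates 1 to 3. Its highest and lowest replicates were those of Gstt1, and its part in the Gstt1 values was not tested.

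**Figure D3:**
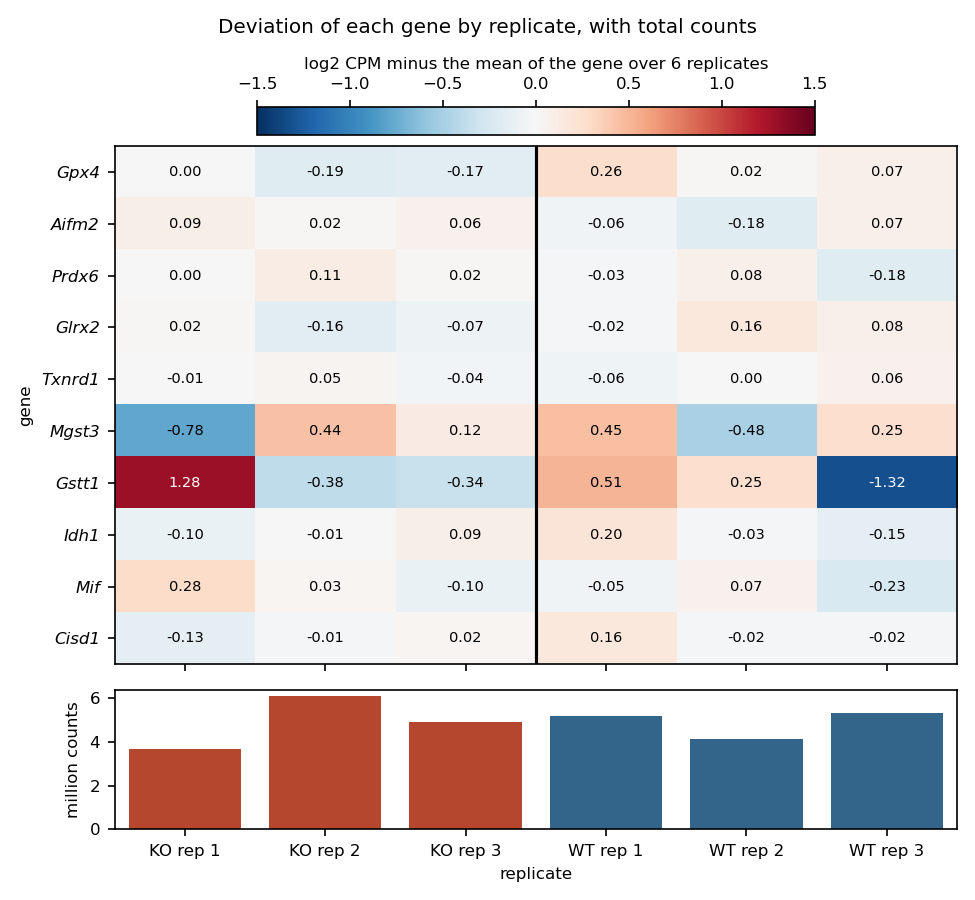
Log2 CPM of each gene minus its mean over the 6 replicates (colour and number in each cell; KO replicates left of the black line, WT replicates right), above the total counts of each replicate. Mgst3 is low in KO replicate 1 and WT replicate 2, Gstt1 is highest in KO replicate 1 and lowest in WT replicate 3, and Txnrd1 deviates from its mean by at most 0.062.

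Idh1, Mif and Cisd1 were among the abundant genes. Idh1 stood at 2406, 2565 and 2735 CPM in KO replicates 1 to 3, against 2956, 2515 and 2326 CPM in WT replicates 1 to 3. WT replicates held both the highest and the lowest value, and the log2 fold change was -0.017 ± 0.12 (SE; 95% interval -0.29 to 0.25). Mif stood at 3412, 2885 and 2635 CPM in KO replicates 1 to 3, against 2719, 2951 and 2409 CPM in WT replicates 1 to 3. KO replicate 1 was the highest and the rest overlapped, with a log2 fold change of 0.14 ± 0.13 (SE; 95% interval -0.15 to 0.44) that was 0.033 without KO replicate 1, 0.077 without WT replicate 3, and 0.22 without KO replicate 3 or WT replicate 2. Cisd1 stood at 2239, 2430 and 2497 CPM in KO replicates 1 to 3, against 2748, 2427 and 2415 CPM in WT replicates 1 to 3. WT replicate 1 was the highest and KO replicate 1 the lowest, the other 4 replicates lay together, and the log2 fold change was -0.083 ± 0.10 (SE; 95% interval -0.32 to 0.15), which was -0.021 without WT replicate 1 and -0.041 without KO replicate 1. The edgeR adjusted p was 0.994 for Idh1, Mif, Cisd1, Prdx6 and Glrx2.

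The intervals bound how large a difference these data allow. For 8 of the 10 genes the 95% interval of the log2 fold change lay within 0.5 of no change, beside 37.7% of all genes tested and 65.9% of the genes with a mean of at least 100 CPM. For Mgst3 it lay within 1, and for Gstt1 it did not. The median SE was 0.12 for the 10 genes and 0.21 for all genes tested, and the median coefficient of variation within a genotype was 7.39% and 16.8%. The 10 genes are mostly abundant, which sets them apart from the average gene tested, so these shares describe precision and nothing particular to redox genes.

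**Figure D4:**
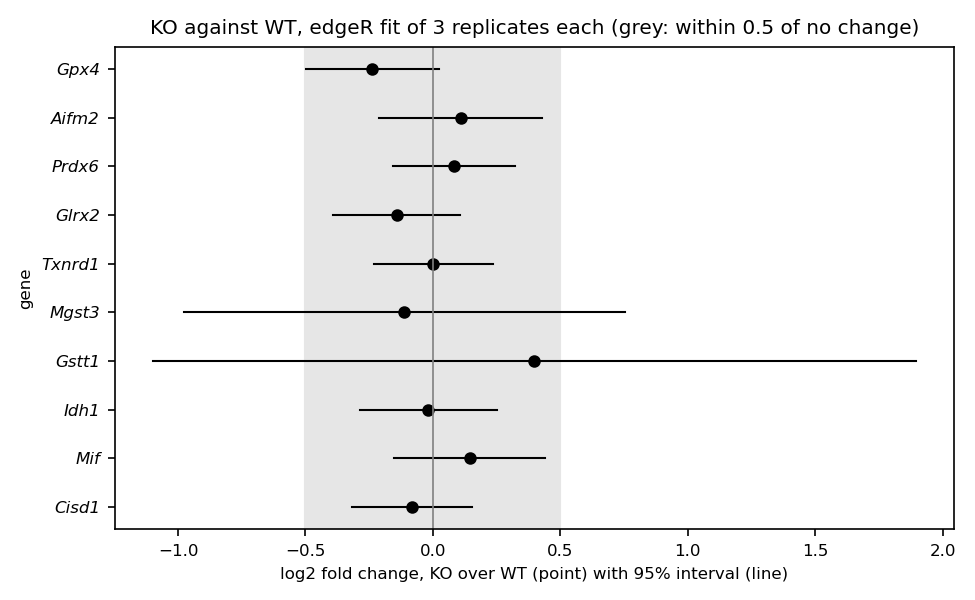
Log2 fold change of the 10 genes, KO over WT, from the edgeR fit of 3 replicates each, with points for the estimates and lines for 95% intervals; grey marks values within 0.5 of no change. Every interval includes 0, that of Gpx4 reaching from -0.50 to 0.023, and the intervals of Mgst3 and Gstt1 are the widest.

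The 10 genes did not move as a block across replicates. Of the 45 pairs, 19 had a Pearson correlation of log2 CPM above 0 over the 6 replicates, and the median was -0.14. The pair of smallest p was Idh1 and Cisd1, with Pearson r = 0.86 (exact permutation p = 0.0292, Benjamini-Hochberg adjusted p = 0.719) and Spearman rho = 0.94 (exact permutation p = 0.0167, adjusted p = 0.750), and r = 0.89 without the 2 replicates farthest from the median of Idh1. Gstt1 and Mif had r = 0.87 (exact permutation p = 0.0319, adjusted p = 0.719) and rho = 0.71 (exact permutation p = 0.136, adjusted p = 0.955). That relation rested on 2 replicates, since r was 0.11 without the 2 farthest from the median of Gstt1. No pair passed the adjustment over the 45 pairs. Among 1410 other genes with counts in every replicate, those most like Gpx4 over the 6 replicates were Mrpl15 (r = 0.98), a mitochondrial ribosomal protein, Cited2 (r = 0.98), a transcriptional coregulator, and Acsl3 (r = 0.96), a long-chain acyl-CoA synthetase, each with rho = 0.94. These genes were picked for the highest r in these same data, where 21 of the 1410 genes had r of at least 0.9. Their likeness to Gpx4 over 6 points is a description only.

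Gstt1 and Mif share a stretch of 89.0 kb on chromosome 10 with other redox genes, and their levels there differed widely. From low to high coordinate the genes are Ddt at chr10:75771233-75773374, Gstt3 at chr10:75774117-75781422, Gstt1, Gstt4 at chr10:75814943-75822566, Gstt2 at chr10:75831842-75837419 and Mif. Per kilobase, averaged over the 6 replicates, Mif stood at 4725 CPM per kb and Ddt, which encodes a close relative of the Mif protein, at 415 CPM per kb. The theta-class transferases stood at 13.3 CPM per kb for Gstt1, 6.92 for Gstt3 and 2.86 for Gstt2, and Gstt4 had no count in any library. The Gstt genes are related in sequence, and the sources do not say how reads shared between them were counted.

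Beyond the 10 genes, 5 lists of redox and ferroptosis genes had 41 genes in the table, of which 32 were tested. edgeR called 0 of the 32, with 2 at an unadjusted p under 0.05, Txndc9 and Acsl3, and DESeq2 and limma-voom called 0 as well. The median log2 fold change over the 32 was -0.12, beside -0.0064 over all genes tested. In Txndc9 and Acsl3, and in no other of the 32, KO and WT replicates did not overlap, beside 8.49% of all genes tested.

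Other glutathione and thioredoxin enzymes had 8 genes tested, 4 with a log2 fold change above 0 and 4 below, and a median of -0.046. With 1 replicate left out, the median ranged from -0.19 without WT replicate 2 to 0.11 without WT replicate 3. Txndc9, a thioredoxin-domain protein also known for its part in protein folding, stood at 742, 681 and 671 CPM in KO replicates 1 to 3, against 852, 905.5 and 802 CPM in WT replicates 1 to 3. All KO values lay below all WT values, with a log2 fold change of -0.29 ± 0.11 (SE; edgeR unadjusted p = 0.0228, adjusted p = 0.927). Qsox1, a sulfhydryl oxidase that makes disulfides in secreted proteins, averaged 383 ± 73.1 CPM in KO cells and 349.8 ± 26.6 CPM in WT cells, and Ddt averaged 258 ± 31.8 CPM in KO cells and 280.0 ± 33.4 CPM in WT cells (SD, n = 3 each).

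Ferroptosis, iron and lipid peroxide genes had 8 genes tested, 4 above 0 and 4 below, and a median of -0.064, which ranged from -0.25 without KO replicate 1 to 0.015 without WT replicate 1. Acsl3, whose product activates monounsaturated fatty acids and so shapes how easily membranes peroxidise, stood at 3602, 3217 and 3317 CPM in KO replicates 1 to 3, against 4661, 3941 and 3733 CPM in WT replicates 1 to 3. All KO values lay below all WT values, with a log2 fold change of -0.28 ± 0.12 (SE; edgeR unadjusted p = 0.0405, adjusted p = 0.994). Cyb5r1, a cytochrome b5 reductase, averaged 323 ± 59.8 CPM in KO cells and 353 ± 42.0 CPM in WT cells, and Coq10b, a coenzyme Q-binding protein of mitochondria, 163 ± 12.3 CPM in KO cells and 163 ± 14.4 CPM in WT cells (SD, n = 3 each). The iron transporters Slc40a1 and Slc11a1 were low, at 4.48 ± 3.42 and 17.3 ± 9.76 CPM in KO cells and 7.06 ± 5.01 and 10.5 ± 5.49 CPM in WT cells.

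NADPH supply had 3 genes tested besides Idh1, 2 above 0 and 1 below, with a median of 0.23 that ranged from 0.11 without KO replicate 3 to 0.35 without KO replicate 1. Aldh1l2, a mitochondrial folate enzyme that makes NADPH, averaged 236 ± 50.2 CPM in KO cells and 318 ± 61.3 CPM in WT cells (SD, n = 3 each), with a log2 fold change of -0.43 ± 0.20 (SE; edgeR adjusted p = 0.994) and overlapping replicates. Mthfd1l, another mitochondrial folate enzyme, averaged 122 ± 20.8 CPM in KO cells and 104 ± 14.8 CPM in WT cells. Nmnat2, which makes NAD, averaged 29.9 ± 9.59 CPM in KO cells and 21.3 ± 7.38 CPM in WT cells. Oxidant-producing enzymes had 4 genes tested of 12 in the table, 2 above 0 and 2 below, with a median of 0.042 that was -1.10 without KO replicate 1, and Aox4, Fmo2 and Fmo9 had no count in any library. Fmo1, a flavin monooxygenase, averaged 19.95 ± 15.1 CPM in KO cells and 22.0 ± 11.4 CPM in WT cells, and Aox1, an aldehyde oxidase, averaged 15.3 ± 15.0 CPM in KO cells and 23.8 ± 10.9 CPM in WT cells.

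Regulators of the oxidative stress response had 9 genes tested, 2 above 0 and 7 below, with a median of -0.14 that was -0.015 without KO replicate 1 and -0.071 without WT replicate 3. Sesn1, a sestrin induced by p53, averaged 401 ± 31.2 CPM in KO cells and 468 ± 66.7 CPM in WT cells (SD, n = 3 each), with a log2 fold change of -0.22 ± 0.14 (SE). Tfam, the transcription factor that packages mitochondrial DNA, averaged 349 ± 33.3 CPM in KO cells and 355 ± 29.9 CPM in WT cells. Mdm4, an inhibitor of p53, averaged 229 ± 44.4 CPM in KO cells and 253 ± 55.7 CPM in WT cells. The edgeR adjusted p was 0.994 for each of these 3 genes, and their replicates overlapped.

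**Figure D5:**
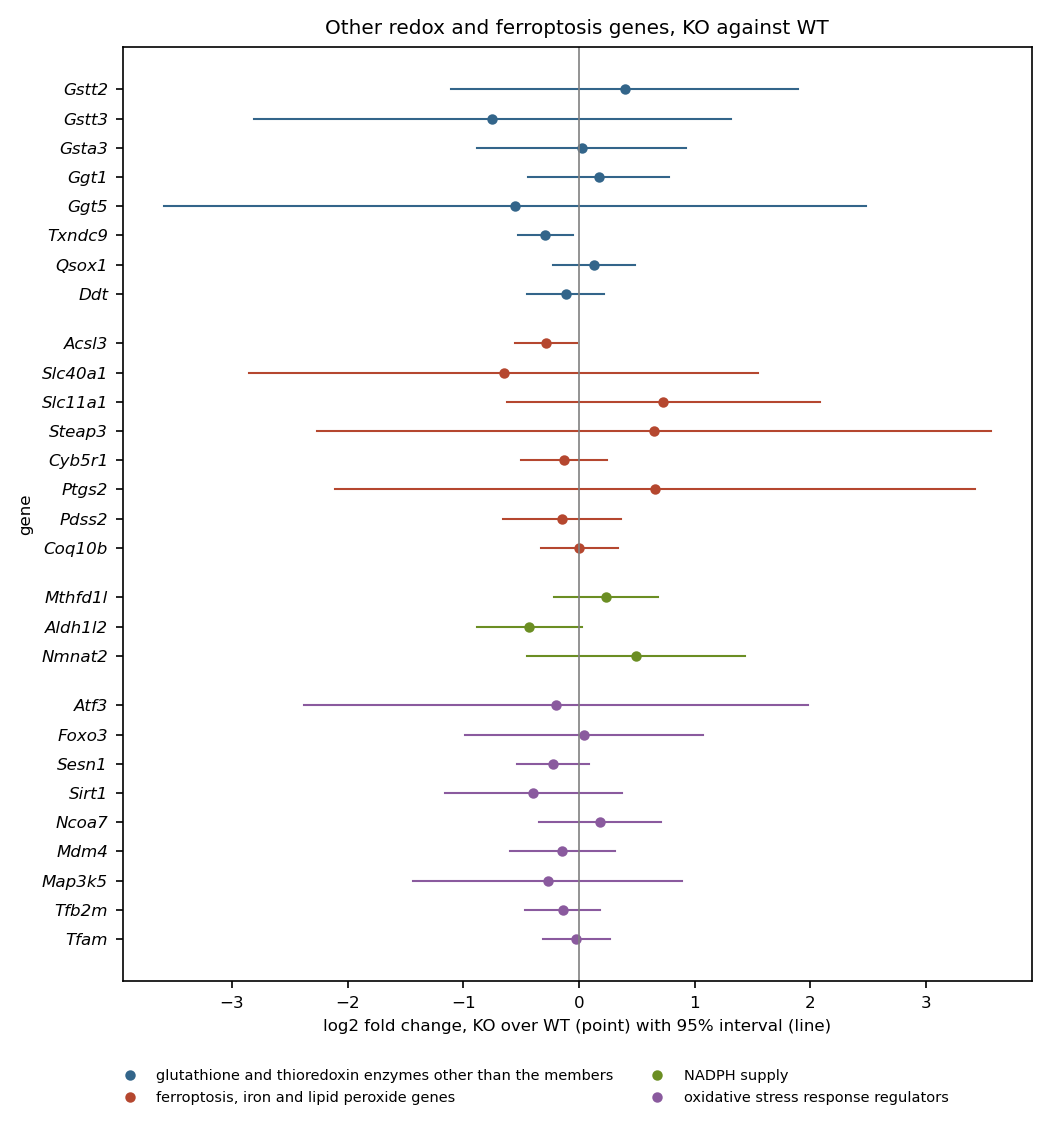
Log2 fold change, KO over WT, of the 28 tested genes on 4 of the further redox and ferroptosis lists, without the oxidant-producing enzymes, with points for the estimates, lines for 95% intervals and colours for the lists. The intervals of Txndc9 and Acsl3 lie just below 0 before adjustment, and the others include 0.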

How the data were processed

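RNA of sorted cells was sequenced as single ends, per the labels' protocols. The authors deposited raw read counts per gene for 12 libraries, under Entrez Gene IDs. The submitters' processing notes name mm10, featureCounts, HISAT2, fastp, FastQC, CASAVA 1.8.2, SAMtools 1.4.1 and DESeq2 1.38.1, without parameters, annotation or strand. Columns named Ctrl were taken as WT, since the only other genotype name is LmnaKO. Of 2398 complete lines (1 incomplete line was dropped), 2226 IDs matched a RefSeq symbol for GRCm38; the other 172, with 0.552% of counts, stayed in the fit.

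Both libraries of a replicate differed little (chi-square p from 0.0594 to 0.486 over genes with at least 20 counts) and were summed. The comparison used edgeR 4.0.16 in R 4.3.3: filterByExpr, TMM factors (0.951 to 1.05), robust glmQLFit, glmQLFTest, and adjustment at 0.05 over all genes tested. SE is the absolute log2 fold change over the square root of F. An exact two-sided permutation test of 1 gene, 3 replicates against 3, cannot go below p = 0.1. The fit was tested on simulated counts. Alternatives used DESeq2 1.42.0, limma 3.58.1, other scalings and filters, a replicate block, single libraries and left-out replicates.

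The 10 genes, lists and tests were chosen with earlier results of these data known. By rule, the text names the 10, called genes and the 3 most abundant tested genes of each list, the most abundant cell type markers and the 3 genes most like Gpx4. Nfasc, Rgs5, Syt1, Slc40a1, Slc11a1, Atf3, Ncoa7, Gstt2, Gstt3, Gstt4 and genes without counts were named after their values were seen. Some genes that the rule names are not reported here.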

Additional observations from a re-analysis of the deposited data

How the results depend on the processing

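In none of the 16 alternatives was any of the 10 genes called, with adjusted p from 0.862 to 1.00, and the 5 further lists also had 0 calls in each. The count over all genes tested was 0 in edgeR and became 7 with DESeq2 on 6 replicates; the cause was not tested, and none of the 7 is among the 10 genes. Of 160 fold changes, 11 changed sign, 4 of Txnrd1, 3 of Idh1, 2 of Mgst3 and 2 of Gstt1. The intervals of all 10 genes include 0. Without 1 replicate the log2 fold changes ranged from -0.36 to 0.74 for Gstt1, -0.38 to 0.16 for Mgst3, -0.082 to 0.084 for Idh1 and -0.030 to 0.041 for Txnrd1. Txnrd1 was -0.0084 with the first library of each replicate and -0.025 with total counts alone. Without KO replicate 1 and WT replicate 2, chosen after seeing the data as the pair low in counts and in Mgst3, Gstt1 was -0.20 and Idh1 0.025. The number of the 10 genes whose replicates do not overlap was 1 with TMM, beside 8.49% of all genes tested. It was 2 with total counts alone (Gpx4 and Glrx2), beside 9.37% of all genes tested. With the first library of each replicate it was 2 (Gpx4 and Aifm2), beside 8.09%. Deviations of same-numbered KO and WT replicates had correlations of -0.0032, -0.30 and 0.14, and not every replicate correlated best with its own number. These values gave no sign of pairing by number, but so few replicates cannot exclude it. With the replicate block edgeR called 0 genes, with 49 at an unadjusted p under 0.05. At 28 to 107 counts per replicate, depth limits Gstt1 most. The median over the oxidant-producing enzymes was -1.10 without KO replicate 1, -0.34 with limma-voom and -0.14 with the replicate block, against 0.042, so its sign is not set by these data. With 1 replicate left out, the median over the 10 genes ranged from -0.024 without KO replicate 3 to 0.081 without WT replicate 1. It was -0.033 with total counts alone.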
